A study of Mus musculus with 16 samples.

Results

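NRF2, encoded by Nfe2l2, is the transcription factor that switches on much of a cell's antioxidant defence. Its sensor KEAP1 hands it to a CUL3 ubiquitin ligase, and the proteasome then degrades it; oxidants and electrophiles modify KEAP1, NRF2 accumulates, pairs with a small MAF protein and binds antioxidant response elements near its target genes. NRF2 activity is set largely at the protein level, which RNA sequencing does not measure. The 10 genes described here are Nfe2l2 and Keap1, 3 genes of glutathione supply (Gclc, Gclm and Slc7a11), 3 genes of the thioredoxin and peroxiredoxin system (Txnrd1, Prdx1 and Srxn1), and the detoxifying enzymes Nqo1 and Hmox1. They were chosen by name as well-known parts of the pathway and are 10 of the 23420 gene entries in the count table. All 10 passed the filter on low counts in every comparison, with 1597 to 41250 reads per gene and library.

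RNA was sequenced from 3 sorted populations of thymic epithelial cells, the stromal cells of the thymus that shape the T cell repertoire. There were 16 libraries: psmb11 -/- (KO) and psmb11 +/+ (WT) cortical cells (cTEC, 2 libraries per genotype), and KO and WT medullary cells labelled mTEClo and mTEChi (3 libraries per genotype each). Psmb11 encodes beta5t, the catalytic subunit of the thymoproteasome, a form of the proteasome found in cortical epithelium. All mice carry the strain label C57BL/6-derived BAC. The sample labels and the design text give an age of 6 to 8 weeks, and the design text 11 thymi, whereas the extraction protocol describes 14 animals aged 7 days; the number of animals behind a library is not given. The sort took EpCAM-positive cells without CD45, and separated cortical cells (with Ly51, without UEA1 binding) from medullary ones (with UEA1 binding, without Ly51). The labels do not name the marker that divided mTEClo from mTEChi. Libraries are named below by their replicate number.

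The libraries held 64753610 to 146707262 reads in genes. The genotype labels were checked with Psmb11: cTEC had 157 and 0 reads in the KO libraries, against 15214 and 12756 in the WT libraries, and even so edgeR did not call it there (adjusted p = 0.0855). Psmb11 was lower in KO than in WT in mTEClo (log2 fold change -2.93, SE 0.23, adjusted p = 5.44e-04 by edgeR) and in mTEChi (-3.35, SE 0.19, adjusted p = 2.43e-07). The population labels were checked with Aire, which drives tissue antigen expression in mature medullary cells, at 1452 to 1642 CPM in WT mTEChi against 8.14 to 18.5 CPM in WT mTEClo and 10.6 to 13.7 CPM in WT cTEC. CPM is a gene's count over the library's total of gene counts, adjusted by TMM scaling and multiplied to the usual CPM unit. In fits of each population alone, edgeR's coefficient of biological variation was 0.652 in cTEC, 0.131 in mTEClo and 0.113 in mTEChi. With WT libraries only it was 0.188 for cTEC with mTEClo, 0.191 for cTEC with mTEChi and 0.106 for mTEChi with mTEClo. Much of the cTEC spread lay between the 2 KO libraries. A chi-square of the counts over its degrees of freedom was 182 for the KO pair and 67.4 for the WT pair of cTEC. For mTEC pairs it was 17.5 to 70.8. KO was therefore compared with WT within each population on its own spread. A gene is said to have risen or fallen, or to be called, where its Benjamini-Hochberg adjusted p over all genes tested was under 0.05. In bulk libraries, fewer cells of a type and less RNA per cell cannot be told apart.

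The core of the antioxidant response element, TGACNNNGC on either strand, was looked for in the promoters of these genes, because it is the sequence that NRF2 and its MAF partner recognise. RefSeq promoters on GRCm38.p6, from 250 bases before to 50 bases after a gene start, were at hand for 8 of the 10 genes (not for Gclc and Hmox1), and 5 of the 8 held the core in at least 1 promoter. Of all 32851 promoters in the table, 12.4% held it, and of the 27025 genes with a promoter, 13.99%. The 5 sites are shown from 5′ to 3′ on the strand that reads TGACNNNGC, with the core in capitals and 10 bases on either side:
Nfe2l2, chr2:75704885-75704913, minus strand: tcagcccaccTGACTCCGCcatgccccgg
Gclm, chr3:122245413-122245441, minus strand: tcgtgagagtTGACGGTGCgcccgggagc
Prdx1, chr4:116685456-116685484, minus strand: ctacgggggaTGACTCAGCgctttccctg
Srxn1, chr2:152105542-152105570, minus strand: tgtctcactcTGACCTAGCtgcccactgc
Txnrd1, chr10:82859104-82859132, minus strand: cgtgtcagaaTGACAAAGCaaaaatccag
The nearest base of the core lay 232 bases before the gene start in Nfe2l2, 126 in Gclm, 125 in Prdx1 and 84 in Txnrd1, where 1 of 3 annotated promoters held it, and 28 bases after the start in Srxn1. The Prdx1 core also contains TGACTCA, the sequence bound by AP-1 factors. A match describes these letters only and is not shown to be a bound site; for Keap1, Nqo1 and Slc7a11 these letters are not in the window searched.

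In WT cells the 10 genes did not share 1 order of levels across the populations. Nfe2l2, Nqo1 and Gclm were highest in cTEC, Slc7a11 and Txnrd1 in mTEClo, and Srxn1 and Hmox1 in mTEChi, where Nfe2l2 was lowest. In WT cTEC against WT mTEClo, 6 genes were higher and 3 lower, where 20.9% and 24.1% of 17213 genes were. In WT cTEC against WT mTEChi, 6 were higher and 2 lower, against 30.8% and 43.5% of 19634 genes, and in WT mTEChi against WT mTEClo 4 were higher and 5 lower, against 43% and 37.9% of 19256 genes. The median log2 fold change of all genes tested was -0.24 in WT cTEC against WT mTEChi, -0.02 in WT cTEC against WT mTEClo and 0.06 in WT mTEChi against WT mTEClo.

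**Figure D1:**
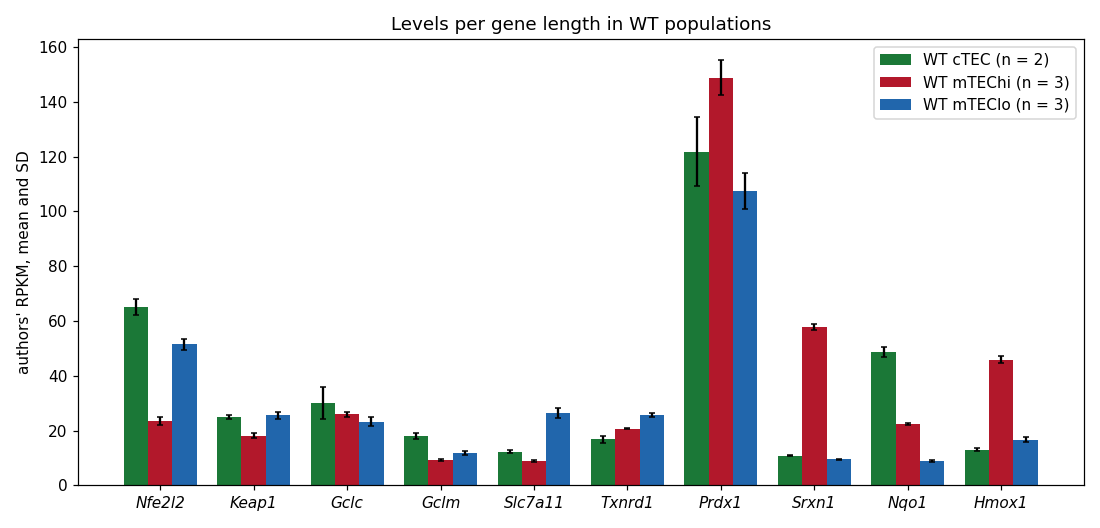
Mean level of each gene in WT libraries in the authors' RPKM (read counts corrected for the length of the gene and the size of the library), which allows levels of different genes to be compared; bars are means and error bars SDs over 2 cTEC, 3 mTEChi and 3 mTEClo libraries. Prdx1 is the highest of the 10 in each population, at 107 to 149 RPKM, while Srxn1, Nqo1 and Hmox1 change places between populations.

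Nfe2l2 (chr2:75675519-75704641, minus strand, mm10) averaged 215 ± 2.55 CPM in WT cTEC (SD, n = 2), 70.2 ± 3.88 CPM in WT mTEChi and 172 ± 4.52 CPM in WT mTEClo (SD, n = 3 each). The log2 fold change was 1.61 (SE 0.07, adjusted p = 3.67e-06 by edgeR) for WT cTEC over WT mTEChi, 0.39 (SE 0.07, adjusted p = 0.00268) for WT cTEC over WT mTEClo and -1.29 (SE 0.06, adjusted p = 2.02e-09) for WT mTEChi over WT mTEClo. No WT library of one population overlapped another. Keap1 (chr9:21229730-21239332, minus strand) averaged 119 ± 1.91 CPM in WT cTEC, 77.3 ± 4.14 CPM in WT mTEChi and 122 ± 7.55 CPM in WT mTEClo; mTEChi was lower than mTEClo (-0.65, SE 0.06, adjusted p = 2.00e-06 by edgeR), cTEC was higher than mTEChi (0.62), and cTEC and mTEClo did not differ beyond their spread (0.04, 95% interval -0.12 to 0.20). Of the Keap1 exon bases in GENCODE, 10.9% overlap the antisense gene Gm16754, and since the library kit does not keep the strand, reads there cannot be told apart.

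Among the genes of glutathione supply, Gclc and Gclm encode the catalytic and modifier subunits of glutamate-cysteine ligase, the first enzyme of glutathione synthesis. Gclm (chr3:122245557-122267215, plus strand) averaged 49.4 ± 0.378 CPM in WT cTEC, 23.4 ± 0.446 CPM in WT mTEChi and 33.1 ± 1.97 CPM in WT mTEClo, with all 3 differences called (log2 1.08 for cTEC over mTEChi, 0.65 for cTEC over mTEClo and -0.50 for mTEChi over mTEClo). Gclc (chr9:77754535-77794489, plus strand) averaged 133 ± 18.9, 105 ± 4.22 and 105 ± 7.46 CPM in WT cTEC, mTEChi and mTEClo. Like Gclm it was higher in cTEC than in mTEChi (0.34, adjusted p = 0.0167 by edgeR) and than in mTEClo (0.41, adjusted p = 0.0169), while mTEChi and mTEClo differed by a log2 fold change of 0.00 (95% interval -0.14 to 0.15). Slc7a11 (chr3:50364936-50443613, minus strand), the cystine transporter that brings in the limiting amino acid for glutathione, had the opposite order to Gclm between cTEC and mTEClo: 152 ± 2.02 CPM in WT cTEC, 99.96 ± 4.36 CPM in WT mTEChi and 332 ± 20.4 CPM in WT mTEClo. Its log2 fold change was -1.73 (SE 0.06, adjusted p = 3.15e-10 by edgeR) for mTEChi over mTEClo and -1.05 (SE 0.08, adjusted p = 2.26e-05) for cTEC over mTEClo. Of the Gclm exon bases, 4.71% overlap the genes Gm17494 or Gm6061.

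In the thioredoxin and peroxiredoxin system, Srxn1 (chr2:152105524-152111376, plus strand), sulfiredoxin, which repairs over-oxidised peroxiredoxins, set mTEChi apart. It averaged 41.2 ± 3.28 CPM in WT cTEC, 198 ± 1.06 CPM in WT mTEChi and 36.8 ± 0.864 CPM in WT mTEClo. The log2 fold change was 2.43 (SE 0.05, adjusted p = 9.13e-12 by edgeR) for mTEChi over mTEClo and -2.26 (SE 0.08, adjusted p = 1.59e-06) for cTEC over mTEChi. Prdx1 (chr4:116685599-116700000, plus strand), a peroxiredoxin that reduces hydrogen peroxide, spanned a narrow range, with 233 ± 10.8 CPM in WT cTEC, 258 ± 9.34 CPM in WT mTEChi and 207 ± 10.3 CPM in WT mTEClo. Txnrd1 (chr10:82833951-82897724, plus strand), the cytosolic thioredoxin reductase, averaged 89.5 ± 12.2 CPM in WT cTEC, 101 ± 0.269 CPM in WT mTEChi and 138 ± 6.06 CPM in WT mTEClo, and was lower than in mTEClo in both other populations. Neither Prdx1 (adjusted p = 0.0968 by edgeR) nor Txnrd1 (0.140) was called between WT cTEC and WT mTEChi.

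Nqo1 (chr8:107388225-107403205, minus strand), a quinone reductase widely used as a readout of NRF2, had the largest difference of the 10 genes between cTEC and mTEClo. WT cTEC had 101 and 98.5 CPM, WT mTEChi 41.5, 42.8 and 42.0 CPM, and WT mTEClo 19.2, 18.8 and 17.4 CPM, so the populations did not overlap. The log2 fold change was 2.51 (SE 0.07, adjusted p = 4.65e-07 by edgeR) for cTEC over mTEClo, 1.25 (SE 0.06, adjusted p = 6.85e-06) for cTEC over mTEChi and 1.19 (SE 0.07, adjusted p = 1.58e-08) for mTEChi over mTEClo. Hmox1 (chr8:75093618-75100593, plus strand), heme oxygenase 1, had another order, with 26.9 ± 0.163 CPM in WT cTEC, 87.6 ± 3.46 CPM in WT mTEChi and 35.1 ± 1.56 CPM in WT mTEClo, and was higher in mTEChi than in mTEClo by 1.32 on the log2 scale (SE 0.06, adjusted p = 2.20e-09). Some macrophages and dendritic cells use Hmox1 strongly. Markers of these cells summed to 651 to 664 CPM in WT mTEChi against 103 to 108 CPM in WT mTEClo. Of 13 markers, 12 were called higher, and Lyz2 led at a mean of 421 CPM in WT mTEChi. Ptprc, which encodes CD45, was at 25.8, 15.4 and 13.3 CPM in WT mTEChi, against 26.1, 28.7 and 25.9 CPM in WT mTEClo. The part of such cells in the Hmox1 difference was not tested. Small calls with WT cTEC depended on single libraries. Against mTEClo, Srxn1 (adjusted p = 0.0437 by edgeR with all libraries) was no longer called when cTEC WT 1 or any 1 mTEClo WT library was left out (adjusted p of 0.0658 to 0.165), nor was Prdx1 (0.0453) without cTEC WT 2, mTEClo WT 1 or mTEClo WT 2 (0.122 to 0.166). Hmox1 (0.0222) was no longer called when any 1 mTEClo WT library was left out (0.0641 to 0.0796), nor Gclc (0.0169) without cTEC WT 2 (0.0608) or mTEClo WT 2 (0.0692). Against mTEChi, Gclc (0.0167) was not called without cTEC WT 2 (0.0688), mTEChi WT 1 (0.0566) or mTEChi WT 2 (0.0667), while Txnrd1 was called without cTEC WT 1 (-0.32, adjusted p = 0.00324) and Prdx1 without cTEC WT 2 (-0.20, adjusted p = 0.0401). Fits without a WT cTEC library leave 1, which is taken to vary as the other group does.

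For each gene whose 6 group means of log2 CPM spanned at least 1, the gene with the most similar profile was sought among 11678 genes, as the smallest root mean square difference between the 6 centred group means. Those genes were Lgr4, a receptor for R-spondins, for Nfe2l2 (0.0230), Crtap, a collagen prolyl-hydroxylation protein, for Gclm (0.0157) and Mex3d for Slc7a11 (0.0926). For the others they were Dtl for Srxn1 (0.0480), Fbln5, a matrix protein, for Nqo1 (0.144) and Rassf3 for Hmox1 (0.0554). Nqo1 had the least close partner of the 6. No 2 of the 6 genes had the same partner, which with 11678 candidates does not show whether they vary together. Keap1, Gclc, Txnrd1 and Prdx1 spanned less than 1.

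**Figure D2:**
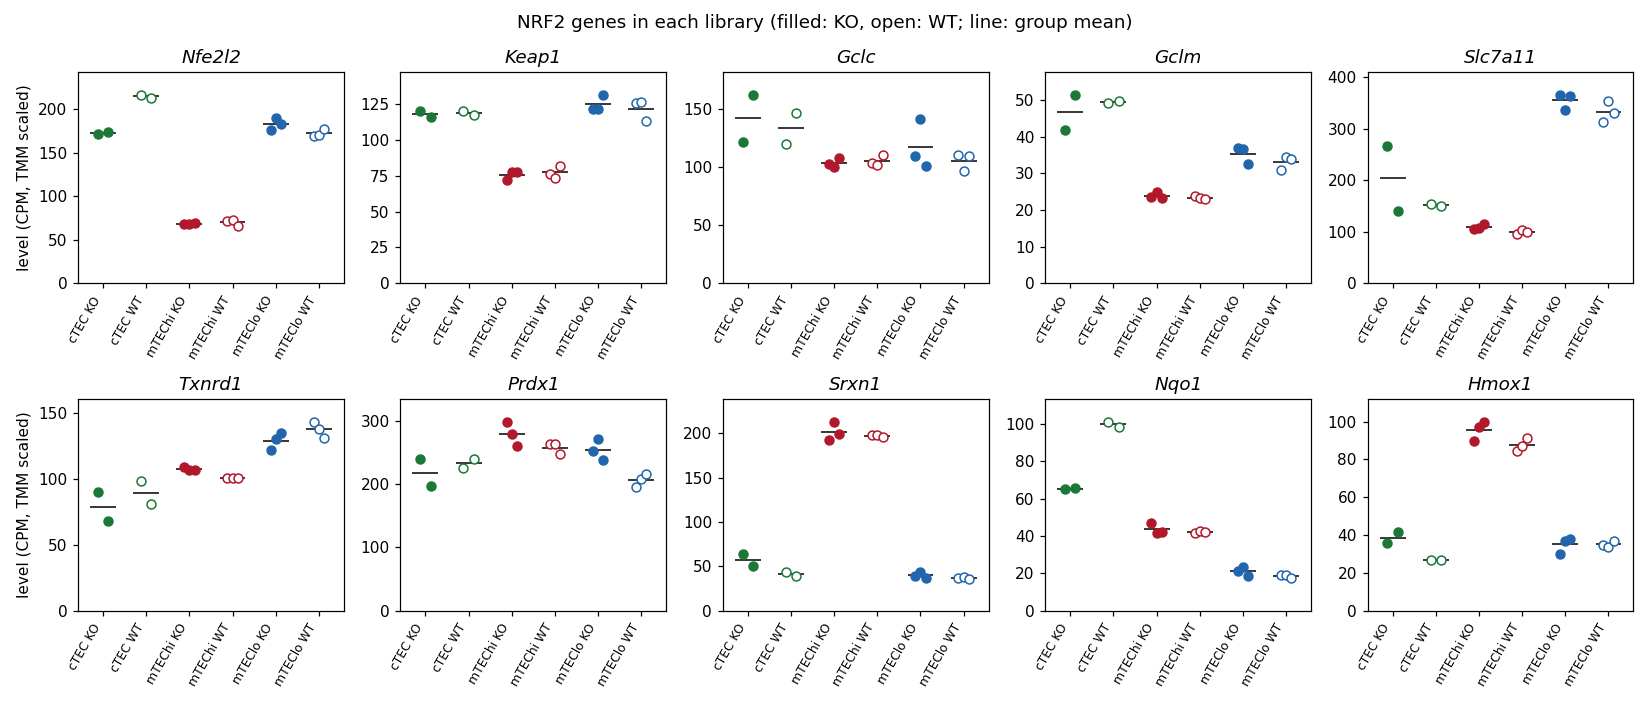
Level of each gene (CPM after TMM scaling, linear axis from 0) in all 16 libraries, with KO filled and left of WT open, and lines for group means. The KO cTEC libraries lie below WT for Nqo1 and Nfe2l2 and above WT for Hmox1 and Srxn1, and the KO mTEClo libraries lie above WT for Prdx1.

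Loss of Psmb11 in cTEC was set against WT to ask how the pathway responds where the thymoproteasome is normally made. None of the 10 genes rose or fell past the threshold by edgeR, nor did any of the 16423 genes tested (0% called; 2104 genes, 3 of the 10 among them, had an unadjusted p under 0.05). DESeq2 called 821 genes, 1 of the 10 among them, and voom 56 and 0 of the 10. KO and WT libraries did not overlap in 4 of the 10 genes: Hmox1 and Srxn1 were above WT and Nqo1 and Nfe2l2 below, where 21% and 24.2% of all genes were so placed. Of the 10 log2 fold changes, 5 were above 0 (50.7% of all genes), and their median was -0.03, against 0.01 for all genes. The targets lay on both sides of WT, in shares near those of all genes.

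Nqo1 had 65.1 and 65.4 CPM in KO cTEC, against 101 and 98.5 CPM in WT cTEC, which gave a log2 fold change of -0.59 (95% interval -0.93 to -0.25, SE 0.14, unadjusted p = 0.00452, adjusted p = 0.191 by edgeR). Both KO libraries were under both WT libraries. In RPKM they were less close together, at 29.2 and 36.2 in KO against 47.4 and 49.9 in WT. DESeq2 called Nqo1 (-0.58, adjusted p = 0.0236), while 8 of 12 alternative fits did not. By edgeR it was at -0.54 without cTEC KO 1 and at -0.64 without cTEC KO 2. These last fits leave 1 KO library, which is taken to vary as the WT libraries do. Nfe2l2 had 171 and 173 CPM in KO cTEC, against 217 and 213 CPM in WT cTEC (-0.30, SE 0.13, unadjusted p = 0.0502, adjusted p = 0.390 by edgeR). Keap1 had 120.4 and 116 CPM in KO cTEC, against 120.3 and 118 CPM in WT cTEC, so that the libraries overlapped, with an interval of the log2 fold change of -0.30 to 0.31.

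Hmox1 had 35.6 and 41.3 CPM in KO cTEC, against 27.0 and 26.7 CPM in WT cTEC (log2 fold change 0.54, SE 0.21, unadjusted p = 0.0408, adjusted p = 0.367 by edgeR). Without cTEC KO 1, which leaves 1 KO library, its log2 fold change was 0.69, the highest of 12 alternative fits. The lowest was 0.38. Srxn1 had 64.2 and 50.03 CPM in KO cTEC, against 43.5 and 38.9 CPM in WT cTEC (0.49, SE 0.18, unadjusted p = 0.0327, adjusted p = 0.345 by edgeR). Both genes were higher in each KO library than in each WT library, the reverse of Nqo1. Slc7a11 had 266 and 140.1 CPM in KO cTEC, against 154 and 151 CPM in WT cTEC. Its log2 fold change of 0.42 (adjusted p = 0.556 by edgeR) rested on cTEC KO 1: it was -0.05 without that library, and 0.78 without cTEC KO 2. Gclc (0.11), Gclm (-0.06), Prdx1 (-0.08) and Txnrd1 (-0.17) overlapped between the genotypes, with intervals between -0.57 and 0.62.

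Other transcripts also stood apart by genotype in the same cTEC libraries. Markers of cortical epithelium summed to 4338 to 5321 CPM in KO cTEC against 6513 to 7769 CPM in WT cTEC, with 9 of 10 log2 fold changes below 0 and their median at -0.73 (8 of 9 and -0.62 without Psmb11, the deleted gene). Of the medullary markers, 11 of 11 tested were above 0 (median 1.03), with summed levels of 4338 to 4449 CPM in KO against 3644 to 4140 CPM in WT, and Ccl21a, a chemokine of medullary cells, at 0 throughout. Aire was at 107 and 44.2 CPM in KO cTEC, against 13.7 and 10.6 CPM in WT cTEC. Thymocyte markers summed to 138 to 215 CPM in KO and 110 to 150 CPM in WT, and macrophage and dendritic cell markers to 114 to 165 CPM in KO and 69.6 to 120 CPM in WT, with Fcgr1 at 0. Fibroblast and pericyte markers summed to 978 to 1267 CPM in KO and 983 to 1253 CPM in WT, a sum led by Dcn, which averaged 598 CPM in KO and 828 CPM in WT; 7 of the 8 were above 0 (median 0.74), with Col1a1 (1.42), Col3a1 (0.87) and Pdgfrb (2.20) higher in both KO libraries than in both WT libraries. None of these markers was called by edgeR. The share of reads in no gene was 30.4% in cTEC KO 1 and 19.9% in cTEC KO 2, against 22.6% and 20.8% in WT cTEC. Genes with 0 reads numbered 5757 in cTEC KO 1 and 8541 in cTEC KO 2, against 6108 and 6938 in WT. The part of the marker shifts and of these library differences in the values of the 10 genes was not tested.

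In mTEClo, none of the 10 genes rose or fell past the threshold. Psmb11 was the only 1 of 17073 genes called (0.00586%), with 2141 genes, of the 10 only Prdx1, at an unadjusted p under 0.05. Prdx1 had 253, 272 and 239 CPM in KO mTEClo, against 196, 209 and 217 CPM in WT mTEClo, a log2 fold change of 0.28 (SE 0.08, 95% interval 0.10 to 0.47, unadjusted p = 0.00568, adjusted p = 0.250 by edgeR). Each KO library was above each WT library; among all genes, 11.5% were placed so and 7.88% the other way. DESeq2 called Prdx1 narrowly (0.28, adjusted p = 0.0498). The log2 fold change was above 0 in 8 of the 10 genes (50% of all genes), with a median of 0.08 against 0.00 for all genes. Nqo1 had 21.3, 23.5 and 18.5 CPM in KO mTEClo, against 19.2, 18.8 and 17.4 CPM in WT mTEClo (0.18, interval -0.05 to 0.42), and these libraries overlapped. Txnrd1 (-0.10) and Hmox1 (-0.02) were the members below 0.

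In mTEChi, none of the 10 genes rose or fell, and all adjusted p were 0.999 by edgeR, with none at an unadjusted p under 0.05 and none called by DESeq2. Psmb11 was the 1 gene called of 19614 (0.0051%). The 95% intervals of the 10 log2 fold changes lay between -0.19 and 0.26. Nqo1 had 47.1, 41.7 and 41.9 CPM in KO mTEChi, against 41.5, 42.8 and 42.0 CPM in WT mTEChi, and the libraries overlapped. Txnrd1 had 109, 107 and 107 CPM in KO mTEChi, against 101, 100.5 and 101 CPM in WT mTEChi (0.09, interval -0.04 to 0.22), and Slc7a11 104, 107 and 114 CPM in KO, against 95.5, 104 and 100.1 CPM in WT (0.12, interval -0.02 to 0.26). In both the KO libraries lay above the WT libraries, as in 4.53% of all genes, and none of the 10 lay wholly below, as 4.41% did. The log2 fold change was above 0 in 7 of the 10 (49.4% of all genes), with a median of 0.03.

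**Figure D3:**
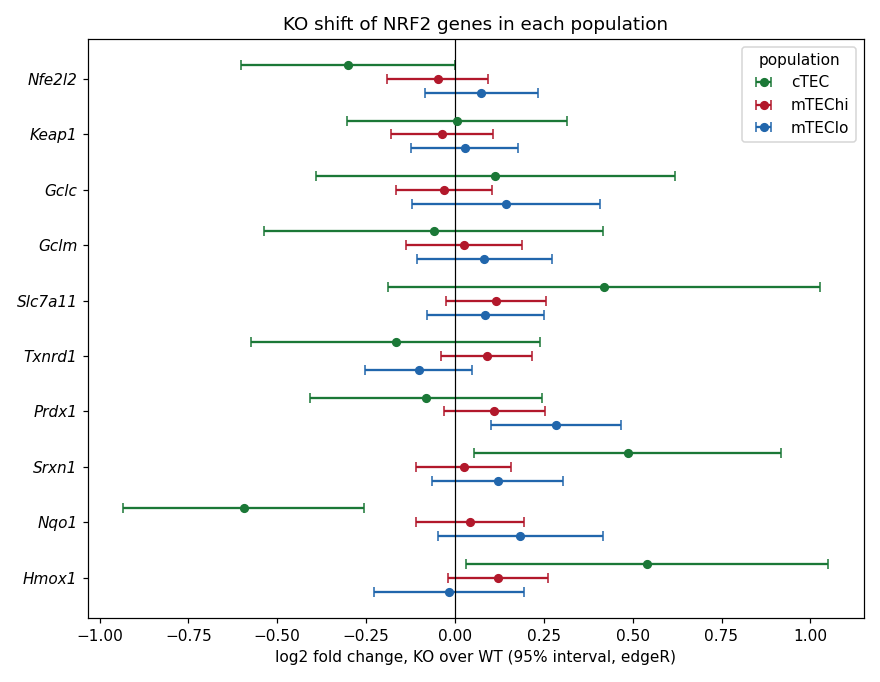
Log2 fold change of KO over WT for each gene in cTEC, mTEChi and mTEClo, as points with 95% intervals from edgeR. The intervals are widest in cTEC, where the Nqo1 point is at -0.59, while its mTEChi and mTEClo points are at 0.04 and 0.18.

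The shift of KO against WT was then compared between populations, with 1 fit for each pair of populations; the comparisons with cTEC share the cTEC libraries. Each of these fits pooled the spread of its 2 populations. The coefficient of biological variation was 0.348 for cTEC with mTEChi and 0.379 for cTEC with mTEClo, against 0.652 in cTEC alone. The SEs below may therefore be too small for cTEC. For Nqo1 the shift was called different in these pooled fits. The KO shift of Nqo1 in cTEC minus that in mTEChi was -0.65 on the log2 scale (SE 0.11, 95% interval -0.90 to -0.41, adjusted p = 0.0124 by edgeR), and in cTEC minus that in mTEClo -0.78 (SE 0.16, interval -1.14 to -0.42, adjusted p = 0.0267). Nqo1 was the 1 of the 10 genes called in each, in both cases lower, where 1.79% of 19990 and 1.27% of 17820 genes were called lower. Against mTEChi the call held whichever single library was left out. Against mTEClo it was lost without cTEC WT 1 (adjusted p = 0.0662) or cTEC WT 2 (0.0843), without mTEClo KO 1 (0.0579) or KO 2 (0.0571), and without mTEClo WT 1 (0.0731), WT 2 (0.0776) or WT 3 (0.0679), with differences of -0.80 to -0.69. Both calls were lost in a voom fit of all 16 libraries with a variance for each population, with adjusted p of 0.272 against mTEChi and 0.157 against mTEClo.

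No other difference of shifts was called among the 10 genes. Between cTEC and mTEChi, Srxn1 (0.44, adjusted p = 0.0624 by edgeR), Hmox1 (0.40, adjusted p = 0.148) and Nfe2l2 (-0.27, adjusted p = 0.167) had an unadjusted p under 0.05. Srxn1 was at 0.55 without cTEC KO 2 and Hmox1 at 0.50 without cTEC KO 1, in fits that leave 1 KO cTEC library. Over 16 alternative fits Srxn1 was at 0.25 to 0.55, Hmox1 at 0.22 to 0.50 and Nfe2l2 at -0.35 to -0.22. Between cTEC and mTEClo, those with an unadjusted p under 0.05 were Hmox1 (0.55, adjusted p = 0.136), Nfe2l2 (-0.38, adjusted p = 0.0908), Prdx1 (-0.37, adjusted p = 0.162) and Srxn1 (0.36, adjusted p = 0.212). Without cTEC KO 1 the difference was 0.71 for Hmox1 and -0.46 for Prdx1, and without cTEC KO 2 it was -0.46 for Nfe2l2. Over 16 alternative fits the differences were 0.37 to 0.71 for Hmox1, -0.46 to -0.29 for Prdx1 and -0.46 to -0.31 for Nfe2l2. For Srxn1 they were 0.23 to 0.47. Between mTEChi and mTEClo, 2 of 19816 genes (0.0101%) were called and none of the 10. There Txnrd1 alone had an unadjusted p under 0.05, with a difference of 0.20 (SE 0.08, interval 0.03 to 0.36, adjusted p = 0.884), and Nqo1 differed by -0.14 (interval -0.40 to 0.13).

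The rest of the antioxidant network was followed in 76 further genes on 5 lists: 13 regulators and partners of NRF2, 21 genes of glutathione synthesis and use, 16 thioredoxin, peroxiredoxin and superoxide enzymes, 7 genes of NADPH supply, and 19 detoxification, heme and iron genes. All 76 were tested, and edgeR called none in KO against WT in any population. At an unadjusted p under 0.05 were 11 in cTEC, 17 in mTEClo and 3 in mTEChi. Of all genes, 2104 of 16423, 2141 of 17073 and 822 of 19614 were under it. DESeq2 called 3, 3 and 0 of the 76 in cTEC, mTEClo and mTEChi, and voom 1, 0 and 0. Both fits called many other genes in cTEC and mTEClo, counted below with the dependence on the processing. In mTEClo 60 of the 76 were above 0, the median log2 fold change was 0.10, and in 33 every KO library was above every WT library, against 2 the other way, where 11.5% and 7.88% of all genes were so placed. In mTEChi 54 were above 0 (median 0.05), with 10 wholly above and 0 wholly below, against 4.53% and 4.41% of all genes. In cTEC 41 were above 0 (median 0.01), with 18 wholly above and 12 wholly below, against 21% and 24.2% of all genes. The share of reads that fell in no gene was 13.7% to 17.4% in KO mTEClo against 17.6% to 19.1% in WT mTEClo, and 19.8% to 22.4% in KO mTEChi against 23.2% to 23.7% in WT mTEChi; its part in these small shifts was not tested. In the same libraries, thymocyte markers were above 0 in 11 of 12 in mTEClo (median 0.42), with sums of 69.8 to 133 CPM in KO against 67.0 to 104 CPM in WT, and in 12 of 12 in mTEChi (median 0.19), with sums of 128 to 280 CPM in KO against 138 to 215 CPM in WT. Replicate 1 had the highest thymocyte sum of each genotype in both. Without replicate 1 of both genotypes, a setting chosen after seeing the data, 59 of the 76 genes were above 0 in mTEClo (median 0.12) and 47 in mTEChi (0.04). The thymocyte sums left were 92.4 and 69.8 CPM in KO mTEClo against 74.3 and 67.0 CPM in WT mTEClo. In mTEChi they were 152 and 128 CPM in KO against 138 and 140 CPM in WT. In mTEClo 0 of 6 endothelial markers were above 0 (median -0.37), with sums of 50.7 to 60.1 CPM in KO against 57.6 to 79.2 CPM in WT, and 5 of 8 fibroblast and pericyte markers were (median 0.25). The part of thymocyte, endothelial and fibroblast transcripts in the shifts was not tested.

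**Figure D4:**
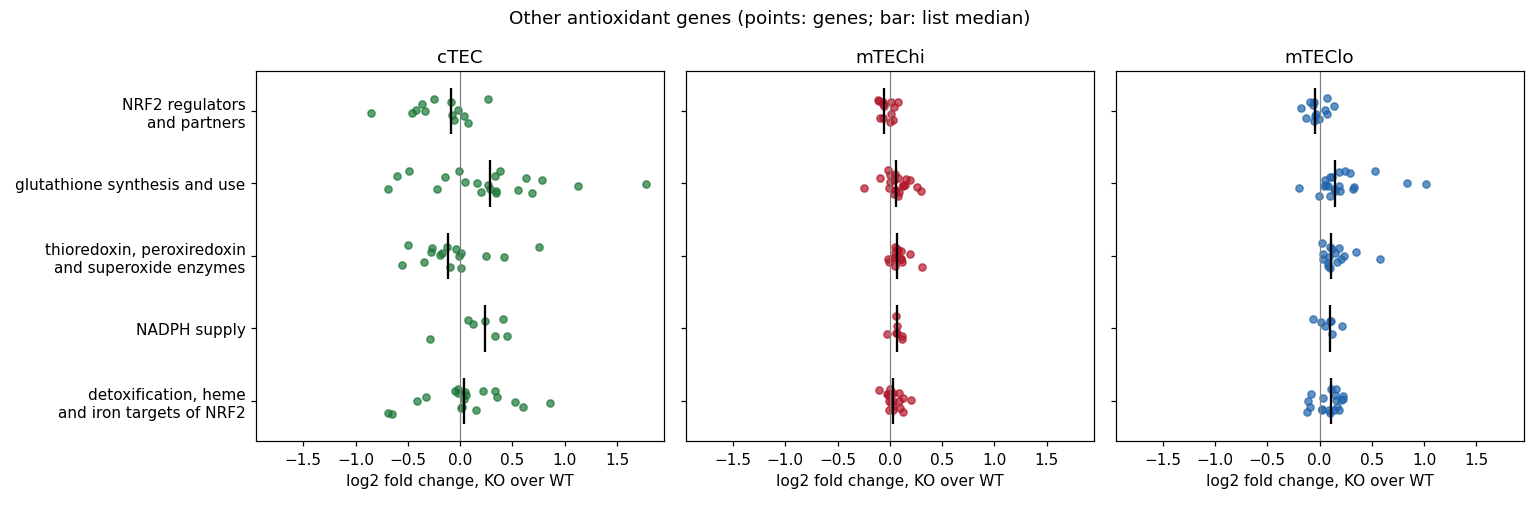
Log2 fold change of KO over WT for the 76 further antioxidant genes by list (points are genes, spread vertically for legibility; bars are list medians) in cTEC, mTEChi and mTEClo. The mTEClo points of 4 lists sit mostly just right of 0, and the cTEC points spread on both sides.

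In mTEClo, the thioredoxin and peroxiredoxin list was above 0 in 16 of 16 genes (median 0.11), the glutathione list in 19 of 21 (0.15), NADPH supply in 6 of 7 (0.10), the detoxification list in 15 of 19 (0.11) and the regulators in 4 of 13 (-0.04). Among the 2 genes of each list with the smallest p, the glutathione transferase Gstm2 averaged 26.7 CPM in KO and 18.3 CPM in WT mTEClo (log2 fold change 0.53, SE 0.12, adjusted p = 0.180 by edgeR), and the microsomal transferase Mgst1 73.2 and 59.4 CPM (0.29). Thioredoxin, Txn1, averaged 291 CPM in KO and 246 CPM in WT (0.23), with Prdx5 at 0.21, the NADPH-forming enzymes Idh1 at 0.22 and Taldo1 at 0.12, the epoxide hydrolase Ephx1 at 0.23 and Esd at 0.22. The ligase subunit Rbx1 was at 0.14 and Mafg at -0.13. DESeq2 called Gstm2 (adjusted p = 0.00405) and Mgst1 (adjusted p = 0.0328).

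In cTEC, where 50.7% of all genes were above 0, glutathione genes were above 0 in 15 of 21 (median 0.29) and NADPH supply in 6 of 7 (0.24). The thioredoxin list was above 0 in 5 of 16 (-0.12), the regulators in 3 of 13 (-0.08) and the detoxification list in 12 of 19 (0.04). Gpx3, a secreted glutathione peroxidase, averaged 1386 CPM in KO and 640 CPM in WT cTEC (log2 fold change 1.13, SE 0.15, adjusted p = 0.0687 by edgeR). Its log2 fold change was 0.98 to 1.30 with any 1 cTEC library left out, and DESeq2 called it (adjusted p = 1.89e-14). The small MAF genes Maff (-0.85, SE 0.22, adjusted p = 0.212) and Mafk (-0.46), partners of NRF2, and the detoxification enzymes Ugdh (-0.69) and Aox1 (-0.65) were below WT in both KO libraries. Gstm1 (0.62), Prdx3 (0.42), Pgls (0.45) and Tkt (0.41) were above WT in both, and Sod2 (-0.35) was below WT in both. Of all genes, 21% were wholly above and 24.2% wholly below. Without cTEC KO 1 the log2 fold change was -1.08 for Maff, -0.87 for Ugdh, -0.77 for Aox1, 0.84 for Gstm1 and -0.57 for Sod2. Without cTEC KO 2 it was 0.65 for Tkt. These fits leave 1 KO library, which is taken to vary as the WT libraries do. Over 12 alternative fits, these included, the ranges were -1.08 to -0.65 for Maff, -0.87 to -0.53 for Ugdh and -0.77 to -0.54 for Aox1. They were 0.38 to 0.86 for Gstm1, -0.57 to -0.15 for Sod2 and 0.14 to 0.65 for Tkt. In mTEChi the 2 genes of each list with the smallest p were Mgst1 (0.30), Gsta2 (0.26), Glrx (0.30), Cat (0.12), Idh1 (0.12), G6pdx (0.11), Osgin1 (0.21), Cbr1 (0.12), Cul3 (-0.11) and Btrc (0.08), all with adjusted p = 0.999 by edgeR.

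Of the 76 genes, 4 had a called difference of KO shifts between populations. The KO shift of Gpx3 was higher in cTEC than in mTEChi (difference 1.04, SE 0.15, adjusted p = 0.00647 by edgeR) and than in mTEClo (0.88, SE 0.15, adjusted p = 0.0130). The KO shift of Mgst3, a gene named after its values were seen, was higher in cTEC than in mTEChi (0.79, adjusted p = 0.0459). In those fits 3.56% and 3.41% of all genes were called higher. The KO shifts of Maff (-0.93, adjusted p = 0.0484) and Ugdh (-0.79, adjusted p = 0.0263) were lower in cTEC than in mTEClo. Gpx3 was itself lower in WT cTEC than in WT mTEClo, at 640 and 1938 CPM (log2 fold change -1.52, adjusted p = 1.20e-05), and stood beside the higher medullary markers of KO cTEC given above, whose part was not tested. The Gpx3 differences were called in each of the 16 alternative fits run for each pair; the other 3 calls depended on the fit and on single libraries. All 3 were lost by voom (adjusted p = 0.445 for Maff, 0.182 for Ugdh and 0.437 for Mgst3), and Maff also under RLE scaling (0.0560) and with the replicate block (0.140). Maff was no longer called when either cTEC WT library or any 1 mTEClo library was left out (adjusted p of 0.0580 to 0.156). The call of Ugdh ended without cTEC WT 1, mTEClo KO 2, mTEClo KO 3 or any 1 of the mTEClo WT libraries (0.0569 to 0.0968), and that of Mgst3 without cTEC WT 1 or any 1 of the mTEChi libraries (0.0885 to 0.125).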

How the data were processed

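Gene counts and RPKM values were used as deposited by the authors. Counts are raw whole reads per gene symbol; the submitters' processing notes name CASAVA 1.8.2, HTSeq 0.5.4p1 and mm10, and the aligner is not given in the sources used here. RPKM, scaled by the authors for gene length and library total, served to compare levels between genes and in 2 alternatives. Entries for reads in no gene (13.7% to 30.4% of a library) were left out. All columns of sample values matched a sample. Counting error is small at these depths; the spread between libraries limits precision.

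The counts went into edgeR 4.0.16 under R 4.3.3 (filterByExpr, TMM, quasi-likelihood F test, Benjamini-Hochberg adjustment over all genes tested, threshold 0.05), separately for each comparison: 4, 6 and 6 libraries for KO against WT in cTEC, mTEClo and mTEChi, 10 or 12 for differences of shifts, and 5 or 6 between WT populations. SE came from the F statistic, and 95% intervals from the fit's degrees of freedom. Levels are CPM with TMM factors of all 16 libraries; a ± is an SD. DESeq2 1.42.0, limma 3.58.1 (voom, or log2 of RPKM plus 0.1 or 1) and further settings were alternatives.

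The genes, lists and tests were chosen with earlier results of these data known. Named genes of the other lists were, for KO against WT, up to 4 called ones per list and comparison by smallest p, or else the 2 with the smallest p. Nearest genes needed a mean of at least 5 CPM. Nothing states that libraries came from separate animals, so the spread that p-values measure may be technical.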

Additional observations from a re-analysis of the deposited data

Results flagged for a closer look

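These results stand here because the shift of KO against WT differed between populations by a test of the difference itself (edgeR, adjusted over all genes). Nqo1 differed by -0.65 between cTEC and mTEChi and by -0.78 between cTEC and mTEClo, with 65.1 and 65.4 CPM in KO cTEC against 101 and 98.5 CPM in WT cTEC and overlapping genotypes in both medullary populations. Gpx3 differed by 1.04 between cTEC and mTEChi and by 0.88 between cTEC and mTEClo, in the opposite direction to Nqo1. Mgst3 differed by 0.79 between cTEC and mTEChi, with 20.6 CPM in KO cTEC and 12.1 CPM in WT cTEC. Maff differed by -0.93 between cTEC and mTEClo, with 31.1 CPM in KO cTEC and 56.3 CPM in WT cTEC. Ugdh differed by -0.79 between cTEC and mTEClo, with 65.0 CPM in KO cTEC and 106 CPM in WT cTEC. All rest on the same 4 cTEC libraries, in fits that pooled the cTEC spread with the smaller mTEC spread. By voom with a variance per population, only the Gpx3 differences stayed called, and those of Nqo1, Mgst3, Maff and Ugdh were lost.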

How the results depend on the processing

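With 2 libraries per genotype in cTEC, counts of called genes there depend heavily on the fit. For KO against WT in cTEC (0 genes called), 383 were called with no filter on low counts, 821 by DESeq2, 4700 in an edgeR fit of all 16 libraries with a shared spread, 56 by voom with a variance per population, and 7 and 8 by limma on log2(RPKM + 0.1) and log2(RPKM + 1). Leaving out 1 library gave 167 to 3501 genes, and 0 to 2 of the 10 NRF2 genes. Of those 10, DESeq2 called 1 (Nqo1) and the shared spread 4 (Nqo1, Nfe2l2, Hmox1 and Srxn1). In mTEClo (1 gene called) the counts were 21 with no filter, 318 by DESeq2 with 1 of the 10 (Prdx1), 0 with the shared spread, 16 by voom, 3 and 3 by limma on RPKM, and 1 to 2 without 1 library. In mTEChi (1 gene called) they were 7 by DESeq2, 0 with the shared spread and 1 to 2 without 1 library.

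For the difference between cTEC and mTEClo (834 genes, 1 of the 10), DESeq2 called 2263 genes and 2 of the 10, the shared spread 2676 and 3, voom 75 and 0, and leaving out 1 library 309 to 6520 and 0 to 3. Between cTEC and mTEChi (1070 genes, 1 of the 10), DESeq2 called 3052 and 3, the shared spread 2160 and 2, voom 60 and 0, RLE scaling 2 of the 10, and leaving out 1 library 492 to 6997 and 1 to 4. Between mTEChi and mTEClo (2 genes), DESeq2 called 16, the shared spread 0, voom 0, and leaving out 1 library 0 to 4. For WT cTEC against WT mTEClo (7735 genes, 9 of the 10), voom called 3375 genes and 5 of the 10, and leaving out 1 library 5523 to 9373 and 5 to 8. Prdx1 (-0.20) and Txnrd1 (-0.23) were called between WT cTEC and WT mTEChi by DESeq2 and under RLE scaling. The causes were not tested.

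Replicate numbers were not taken to pair the samples: deviations of libraries with the same number correlated at -0.106 to 0.212 within a population (highest for replicate 1, at 0.200 in mTEClo and 0.212 in mTEChi), and at -0.183 to -0.0172 between WT populations. With the replicate block, 718 genes were called for KO against WT in cTEC and 281 for the difference between cTEC and mTEClo, where 0 of the 10 genes stayed called (Nqo1 -0.78, adjusted p = 0.0684). Of the remaining calls among the 10 genes, the block ended those of Hmox1 and Srxn1 in WT cTEC against WT mTEClo (adjusted p = 0.120 and 0.151) and of Gclc in WT cTEC against WT mTEChi (0.0543).

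Over all named genes and alternatives, 1236 results kept their direction and side of the threshold, 58 passed it only in the alternative, 61 no longer passed it, and 27 turned direction. In cTEC, Keap1 was at -0.00098 with the shared spread and -0.0020 by voom. Without 1 library the cTEC ranges that crossed 0 were -0.0128 to 0.0282 for Keap1, -0.161 to 0.350 for Gclc, -0.267 to 0.127 for Gclm, -0.176 to 0.0149 for Prdx1 and -0.0515 to 0.781 for Slc7a11. In mTEClo they were -0.0656 to 0.0827 for Hmox1 (0.0274 and 0.0263 on the RPKM scales), -0.0238 to 0.256 for Gclc and -0.00579 to 0.0498 for Keap1. In mTEChi they were -0.00234 to 0.0415 for Gclm, -0.0654 to 0.00161 for Keap1, -0.0150 to 0.0732 for Nqo1 and -0.0165 to 0.0582 for Srxn1, while on the RPKM scales Nfe2l2 was at 0.00013 and 5.7e-05 and Gclc at 0.0103 and 0.00997. Gclc in WT mTEChi against WT mTEClo was at -0.0068 with no filter and between -0.0574 and 0.0525 without 1 library.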
